A study of Homo sapiens with 6 samples.

Results

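Band 7q11 of human chromosome 7 holds blocks of duplicated sequence, and the genes studied here belong to them: GTF2I and its relatives, and the copies of STAG3. The members were all transcripts that the GENCODE annotation assigns to the symbols GTF2I, GTF2IP1, GTF2IP4, GTF2IRD1, GTF2IRD2, GTF2IRD2B, STAG3, STAG3L1, STAG3L2 and STAG3L3, with gene ids that share a symbol kept apart. These 10 symbols carried 11 gene ids of 36415 in the tables and 80 transcripts of 199240. At least 1 estimated count was given to 68 of the 80 transcripts in some library, and at least 10 to 49 of them. The set was selected on the estimated counts of GTF2IP1 and STAG3L3, which differed between the groups in these libraries, so the values of these 2 genes are given as a description, with no test.

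The libraries were made from HCT116 cells, a long-established line from a human colorectal carcinoma, in which the MCM2 alleles carry a mini auxin-inducible degron (MCM2-mAID). Auxin libraries came from degron cells given 500 µM 3-indoleacetic acid, which sends the tagged protein to the proteasome, and DMSO libraries came from degron cells given the solvent dimethyl sulfoxide, with 3 libraries in each group. Cells of both groups had been synchronised and then sorted in G1 phase, before DNA replication. Every library came from the degron line, so auxin itself and loss of MCM2 cannot be told apart, and the p-values refer to the spread among libraries, which the study calls independent without saying what was repeated. Auxin libraries held between 62.8 and 66.8 M estimated counts and DMSO libraries between 52.5 and 68.4 M, with the lowest total in DMSO 2. The degron acts on protein, so mRNA does not check it: MCM2 mRNA had 352 ± 4.35 CPM (counts over effective library size) in auxin libraries and 366 ± 22.9 CPM in DMSO libraries (SD, n = 3 each, edgeR adjusted p = 0.557). Summed markers of colon epithelium lay between 4254 and 4452 CPM in auxin libraries and between 4611 and 5095 CPM in DMSO libraries, with all 8 detected, and 1 of the 7 tested (KRT18) was called lower in auxin. CEACAM5, the scarcest of these, had 4.41 estimated counts at most in a library, and VIL1 had means of 0.687 CPM in auxin and 1.10 CPM in DMSO libraries. Most of the sum was KRT8 (means of 2254 CPM in auxin and 2527 CPM in DMSO libraries) and KRT18 (1191 and 1336 CPM). Summed markers of leukocytes lay between 0.662 and 0.773 CPM in auxin libraries and between 0.694 and 0.784 CPM in DMSO libraries, and those of fibroblasts between 31.4 and 39.2 CPM in auxin libraries and between 26.9 and 35.3 CPM in DMSO libraries, with all 4 markers of each list at 1 estimated count or more in some library. COL1A1 made up nearly all of the fibroblast sum, at 35.6 ± 3.91 CPM in auxin libraries and 31.3 ± 4.24 CPM in DMSO libraries. COL1A2, DCN and LUM lay at 0.104, 0.0950 and 0.0051 CPM in auxin libraries and 0.0571, 0.120 and 0 CPM in DMSO libraries (means). The part of the epithelial markers in the results was not tested.

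GTF2I encodes TFII-I, a transcription factor that binds initiator elements and E-boxes. GTF2I, GTF2IRD1 and GTF2IRD2 encode related proteins with repeated helix-loop-helix-like domains, and lie in or beside the region deleted in Williams-Beuren syndrome. Duplication of the flanking blocks left partial copies of GTF2I (GTF2IP1 and GTF2IP4), a nearly identical copy of GTF2IRD2 (GTF2IRD2B), and shortened copies of STAG3 (STAG3L1, STAG3L2 and STAG3L3). STAG3 itself encodes a subunit of meiotic cohesin and lies outside band 7q11. A short read from such copies matches several transcripts, and kallisto, which made these tables, divides such reads among the transcripts by estimation. An estimated count of a near-copy is therefore partly a product of that division.

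Few bases tell the copies apart. In hg38, GTF2I occupies chr7:74650231-74760692 (plus strand) and GTF2IP4 chr7:73154938-73207283 (plus strand). GTF2IP1 has 2 ids on the minus strand. The pseudogene id (ENSG00000277053.5) spans chr7:75187242-75217264 and has a single transcript, GTF2IP1-201, of 2047 bases. The long non-coding RNA (lncRNA) id (ENSG00000290871.1) spans chr7:75185385-75237696 and covers the pseudogene whole. Along its full length GTF2IP1-201 differed from GTF2IP4-201 at 5 bases and from GTF2I-215, an mRNA of GTF2I, at 6. These are the fewest single-base changes that turn one sequence into the other. Capitals mark the bases at which an alignment of the copies differs, in 3 of the windows, with each sequence credited to GENCODE 44 on hg38. In the first window both pseudogenes differ from GTF2I, at chr7:74732509-74732549 (GTF2I exon 14, coding), chr7:75213519-75213559 (GTF2IP1 exon 3) and chr7:73179117-73179157 (GTF2IP4 exon 3).
GTF2I-215: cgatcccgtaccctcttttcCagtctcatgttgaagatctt
GTF2IP1-201: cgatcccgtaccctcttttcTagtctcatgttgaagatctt
GTF2IP4-201: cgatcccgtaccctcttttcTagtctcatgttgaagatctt
In the second window GTF2IP4 differs from the others, at chr7:74744888-74744928 (GTF2I exon 20, coding), chr7:75201134-75201174 (GTF2IP1 exon 9) and chr7:73191501-73191541 (GTF2IP4 exon 9).
GTF2I-215: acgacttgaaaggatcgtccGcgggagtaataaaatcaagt
GTF2IP1-201: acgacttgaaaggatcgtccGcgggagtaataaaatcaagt
GTF2IP4-201: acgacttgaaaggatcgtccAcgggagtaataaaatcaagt
In the last of these windows GTF2IP1 differs from the others, at chr7:74753112-74753156 (GTF2I exon 28, coding), chr7:75192920-75192962 (GTF2IP1 exon 17) and chr7:73199714-73199758 (GTF2IP4 exon 17), where it has 3 bases in place of 5. Capitals there cover the whole stretch, which is more than the fewest changes need.
GTF2I-215: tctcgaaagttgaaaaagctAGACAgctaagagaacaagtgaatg
GTF2IP1-201: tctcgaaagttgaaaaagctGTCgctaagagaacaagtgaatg
GTF2IP4-201: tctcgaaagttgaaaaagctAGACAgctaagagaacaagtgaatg
This last window sets GTF2IP1 apart from GTF2I and GTF2IP4, but not the pseudogene id from the lncRNA id. The whole of GTF2IP1-201 occurs at positions 405 to 2451 of both GTF2IP1-210 and GTF2IP1-204, which are transcripts of the lncRNA id.

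Sequence was also counted in 31-mers, the stretches of 31 bases by which kallisto matches reads by default, over the transcripts matched to GENCODE. GTF2IP1-201 had 0 of 2017 that no other transcript holds. All 2017 were in GTF2IP1-210, 95.3% were in GTF2IP4-202 and 93.8% in GTF2I-222, and 33 occurred in no symbol but GTF2IP1. GTF2IP4-201 lay whole within GTF2IP4-202, and 62 of its 2024 31-mers were particular to the GTF2IP4 gene. GTF2I was easier to tell apart, since 1184 of the 4385 31-mers of GTF2I-215 (27.0%) occurred in no other gene. GTF2IRD2-201 had 108 of 3575 31-mers particular to its gene (3.02%), and GTF2IRD1-201 had 3245 of 3400 (95.4%). At 21 bases and at the read length of 43 bases, GTF2IP1-201 still had 0 stretches of its own.

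The STAG3L copies share sequence as well. STAG3L3 (chr7:72998027-73003730, minus strand), STAG3L2 (chr7:74882705-74890402, minus strand) and STAG3L1 (chr7:75361374-75367087, plus strand) have 1 transcript each, and the first 840 bases of STAG3L1-201 and STAG3L3-201 are identical. STAG3L2 differs from both, here shown at a substitution, at chr7:73003039-73003079 (STAG3L3 exon 2), chr7:75362030-75362070 (STAG3L1 exon 2) and chr7:74887701-74887741 (STAG3L2 exon 3).
STAG3L3-201: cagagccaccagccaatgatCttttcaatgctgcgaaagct
STAG3L1-201: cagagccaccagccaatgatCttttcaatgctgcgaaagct
STAG3L2-201: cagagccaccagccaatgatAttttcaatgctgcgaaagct
It differs again where 8 bases of STAG3L3 and STAG3L1 (capitals), beside the junction of exons 4 and 5, are missing from STAG3L2 at the junction of its exons 5 and 6. These windows cross introns and span chr7:72999550-72999807, chr7:75365307-75365564 and chr7:74884223-74884472.
STAG3L3-201: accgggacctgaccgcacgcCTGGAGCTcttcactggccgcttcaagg
STAG3L1-201: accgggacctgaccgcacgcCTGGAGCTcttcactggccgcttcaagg
STAG3L2-201: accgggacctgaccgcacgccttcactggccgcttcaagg
STAG3L3-201 had 0 of 1037 31-mers of its own, STAG3L2-201 had 0 of 987 and STAG3L1-201 had 29 of 864. Each of the 3 is overlapped on its own strand by an unnamed lncRNA gene: ENSG00000290832 covers STAG3L3, ENSG00000290833 covers STAG3L2 and ENSG00000290951 covers STAG3L1. Of the 31-mers of STAG3L3-201, 85.3% were in a transcript of ENSG00000290832, 84.9% in one of ENSG00000290833 and 80.5% in STAG3L1-201.

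Of the 11 gene ids, 9 passed the low-count filter, while STAG3L1 and STAG3L2 did not. The quasi-likelihood test of edgeR, with Benjamini-Hochberg adjustment over all 15765 tested genes and a threshold of 0.1, called 2 of the 9, the GTF2IP1 pseudogene id and STAG3L3, where 6.78% of all genes were called. That count is what chose the members. For none of the other 7 did the test give a call, in the main design or under any of the other settings tried. Groups did not overlap in 3 of the 9 (both of these and GTF2IRD2), where 26.7% of all tested genes did not overlap. The median log2 fold change (auxin minus DMSO) was 0.04 over the 9 and 0.01 over all tested genes.

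**Figure D1:**
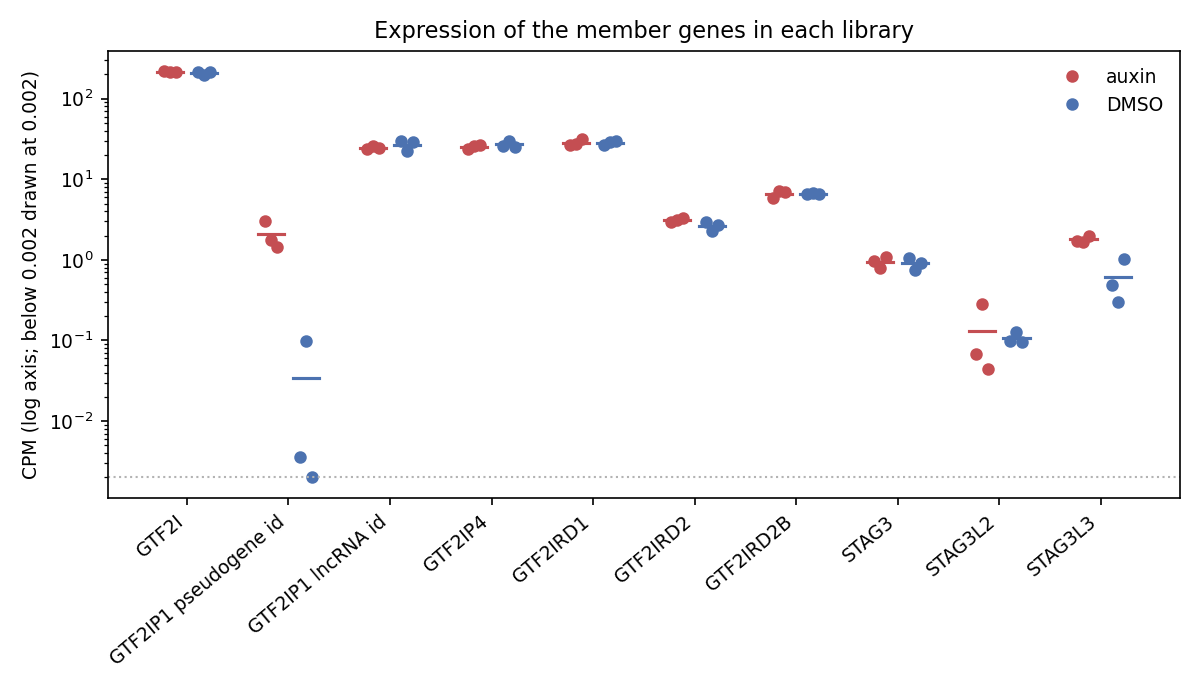
CPM (log axis) of the member gene ids in the 3 auxin (left, red) and 3 DMSO (right, blue) libraries, with points for libraries and lines for means; STAG3L1, at 0 in every library, is left out. The GTF2IP1 pseudogene id and STAG3L3 are the ones whose groups lie far apart, at a mean of 2.08 CPM in auxin and 0.0344 CPM in DMSO for GTF2IP1.

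GTF2I, the active gene, was the most highly expressed member. It received 13414, 13911 and 13252 estimated counts in auxin libraries, against 13844, 9893 and 12846 in DMSO libraries. Scaled for depth, the level was 215 ± 4.33 CPM in auxin libraries and 208 ± 7.91 CPM in DMSO libraries (SD, n = 3 each). The groups overlapped, since auxin 3 (211 CPM) lay below DMSO 1 (213 CPM), and DMSO 2 was lowest at 199 CPM. The log2 fold change was 0.05 (SE 0.04, edgeR adjusted p = 0.539), with a 95% interval of 0.97- to 1.10-fold. Per effective length, GTF2I stood at 86.8 ± 1.24 TPM (counts over effective length, scaled to 1 common total) in auxin libraries and 79.8 ± 5.30 TPM in DMSO libraries.

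The most abundant mRNAs of GTF2I did not pass the test either. GTF2I-218 had 5248, 5576 and 5844 estimated counts in auxin libraries and 5855, 4306 and 5655 in DMSO libraries. GTF2I-215 had 4073, 4443 and 3866 in auxin libraries and 4230, 2772 and 3671 in DMSO libraries. GTF2I-212 had 2573, 2163 and 2065 in auxin libraries and 2106, 1771 and 2007 in DMSO libraries. In each of these 3 mRNAs the groups overlapped, and the edgeR adjusted p over all tested transcripts lay at 0.864 or above. GTF2I-221 shows how far a single transcript can swing within a group: it had 200, 148 and 58.4 estimated counts in auxin libraries and 175, 0 and 156 in DMSO libraries.

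The GTF2IP1 pseudogene id received 185, 114 and 89.7 estimated counts in auxin libraries, against 0.234, 4.95 and 0 in DMSO libraries, where the last value was under 0.001. All auxin libraries were high, all DMSO libraries were near 0, and auxin 1 was the highest. In CPM these were 3.03, 1.76 and 1.43 in auxin libraries and 0.0036, 0.0995 and 0 in DMSO libraries. The fitted log2 fold change was 6.08 (SE 0.71), a value that depends on the prior count of the fit because the DMSO libraries lie near 0, and leaving out DMSO 2, which held nearly all of the DMSO estimate, gave 10.02.

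The lncRNA id of GTF2IP1, which covers the same sequence, received 1469, 1659 and 1514 estimated counts in auxin libraries, against 1931, 1117 and 1734 in DMSO libraries. The difference on the log2 scale was -0.13 (SE 0.10, edgeR adjusted p = 0.457, 95% interval 0.79- to 1.06-fold), and the groups overlapped. The pseudogene id took 11.19%, 6.45% and 5.59% of the counts of both GTF2IP1 ids in auxin libraries, against 0.0121%, 0.442% and 0% in DMSO libraries. Both ids together held 27.1, 27.3 and 25.6 CPM in auxin libraries and 29.7, 22.5 and 28.6 CPM in DMSO libraries, so that the DMSO libraries lay on both sides of the auxin ones.

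Within the lncRNA id, the transcripts that contain GTF2IP1-201 did not pass the test (edgeR adjusted p = 0.863 and 0.857). GTF2IP1-210, which contains all of GTF2IP1-201, had 946, 908 and 912 estimated counts in auxin libraries, against 1386, 647 and 1210 in DMSO libraries. GTF2IP1-204, the other transcript that contains it, had 43.8, 77.0 and 32.0 in auxin libraries, against 0, 0 and 27.9 in DMSO libraries. The 3 nested transcripts together held 1175, 1099 and 1034 estimated counts in auxin libraries, against 1386, 652 and 1238 in DMSO libraries. Thus the group in which GTF2IP1-201 was near 0 gave the highest and the lowest sum of the 3.

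GTF2IP4, the copy on the other side of the region, received 1450, 1690 and 1661 estimated counts in auxin libraries, against 1660, 1500 and 1543 in DMSO libraries. At 25.4 ± 1.46 CPM in auxin libraries and 27.0 ± 2.68 CPM in DMSO libraries (SD, n = 3 each), it gave a log2 fold change of -0.09 (SE 0.08, edgeR adjusted p = 0.550). Its transcript GTF2IP4-201 had 970, 1092 and 1079 estimated counts in auxin libraries and 1308, 895 and 966 in DMSO libraries. Its longer transcript GTF2IP4-202 had 479, 598 and 581 in auxin libraries and 353, 605 and 577 in DMSO libraries. DMSO 1 was the library with the most GTF2IP4-201 and the least GTF2IP4-202.

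**Figure D2:**
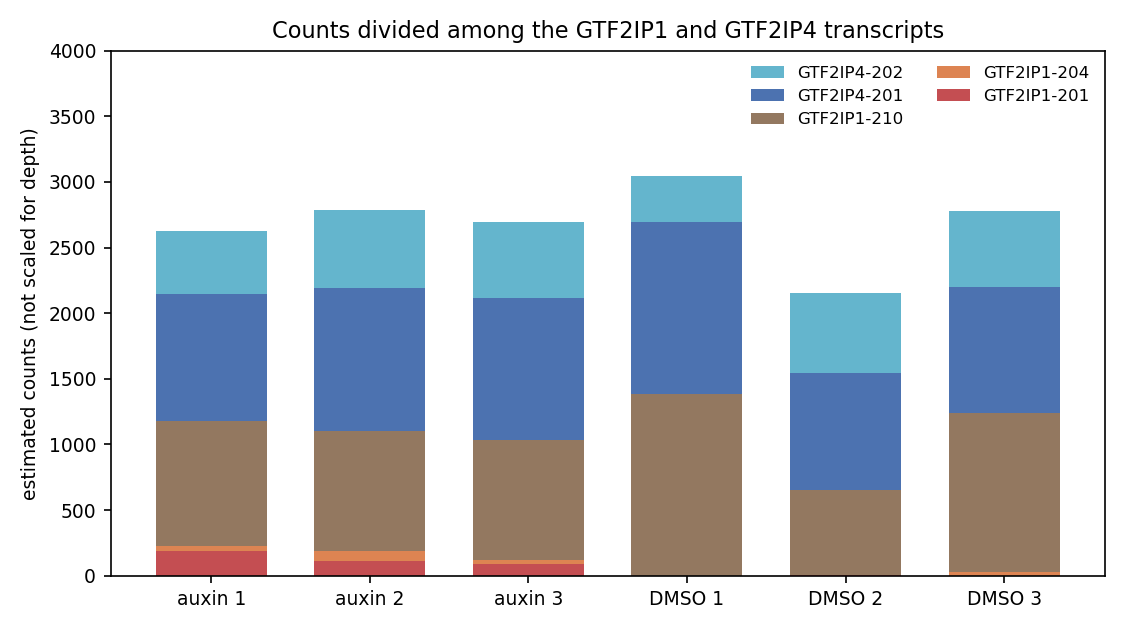
Estimated counts of 5 GTF2IP1 and GTF2IP4 transcripts, stacked, in each auxin (left) and DMSO (right) library, not scaled for depth. The band of GTF2IP1-201 is visible in the auxin libraries (89.7 to 185) and not in the DMSO libraries, and is a small part of stacks of 2625 to 2789 in auxin and 2152 to 3046 in DMSO.

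Summing over copies removes the division among the copies summed, but reads shared with a gene outside the sum stay divided. The GTF2IP1 pseudogene id held a mean of 2.08 CPM in auxin libraries and 0.0344 CPM in DMSO libraries, a small part of either sum below. A flat sum therefore cannot tell whether this id changed. GTF2IP1 (both ids) and GTF2IP4 together held 50.9, 53.4 and 52.1 CPM in auxin libraries, against 55.3, 52.7 and 54.0 CPM in DMSO libraries. With each family sum refitted among all genes, where 6.78% to 6.8% of all rows were called, the log2 fold change of this sum was -0.05 (SE 0.04, edgeR adjusted p = 0.543, 95% interval 0.90- to 1.03-fold). With GTF2I added, the family held 271, 268 and 263 CPM in auxin libraries, against 268, 251 and 266 CPM in DMSO libraries. The log2 fold change of the family was 0.03 (SE 0.04, edgeR adjusted p = 0.735, 95% interval 0.96- to 1.09-fold), which changed sign without DMSO 2. Of the family's counts, GTF2I took 80.5 ± 0.62% in auxin libraries and 79.4 ± 0.31% in DMSO libraries, while the GTF2IP1 pseudogene id took 0.774 ± 0.305% in auxin libraries and 0.0136 ± 0.0225% in DMSO libraries (SD, n = 3 each). The other GTF2IP pseudogenes added little, since a sum that included them gave a log2 fold change of 0.03 as well.

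Sequences that are fully identical gave identical estimates. GTF2I-206 and GTF2IP1-207 share all 567 bases and were each given 2.87, 1.75 and 1.94 estimated counts in auxin libraries and 2.98, 2.91 and 2.38 in DMSO libraries. GTF2I-207 and GTF2IP1-203 share all 653 bases and were each given 0.925, 3.52 and 4.36 in auxin libraries and 0, 0 and 2.77 in DMSO libraries. Such pairs cannot be told apart at any depth.

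GTF2IRD1, whose protein is related to TFII-I, has few near-copies and serves as a member that reads can resolve. It received 1601, 1794 and 1964 estimated counts in auxin libraries, against 1718, 1425 and 1827 in DMSO libraries. The levels were 28.4 ± 2.63 CPM in auxin libraries and 28.4 ± 1.85 CPM in DMSO libraries (SD, n = 3 each). The log2 fold change was 0.0007 (SE 0.07, edgeR adjusted p = 0.998, 95% interval 0.89- to 1.12-fold), and its sign turned under 8 of the other settings.

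GTF2IRD2 and its copy GTF2IRD2B encode members of the same protein family. GTF2IRD2 (chr7:74796151-74851605, minus strand) had 2.98, 3.10 and 3.30 CPM in auxin libraries, against 2.98, 2.27 and 2.75 CPM in DMSO libraries. Every auxin library lay above every DMSO library, although auxin 1 and DMSO 1 were nearly equal. The log2 fold change of 0.23 (SE 0.12) did not pass the test (edgeR adjusted p = 0.317, 95% interval 0.97- to 1.42-fold). Its transcript GTF2IRD2-201 had 49.96, 64.4 and 57.7 estimated counts in auxin libraries, against 36.9, 31.7 and 41.6 in DMSO libraries. GTF2IRD2-203 had 75.3, 81.2 and 69.5 in auxin libraries, against 59.5, 46.8 and 48.8 in DMSO libraries. Neither transcript was called over all tested transcripts (edgeR adjusted p = 0.760 and 0.772).

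GTF2IRD2B (chr7:75092573-75149817, plus strand) was the more abundant copy, with 5.81, 7.08 and 6.86 CPM in auxin libraries, against 6.55, 6.74 and 6.51 CPM in DMSO libraries. The difference on the log2 scale was -0.004 (SE 0.09, edgeR adjusted p = 0.988), and turned positive without auxin 1 or without DMSO 2. GTF2IRD2B took 67.7 ± 1.74% of the counts of the pair in auxin libraries and 71.3 ± 3.13% in DMSO libraries (SD, n = 3 each). The sum of the pair had 8.78, 10.2 and 10.2 CPM in auxin libraries, against 9.53, 9.01 and 9.26 CPM in DMSO libraries, with a log2 fold change of 0.07 (SE 0.08, edgeR adjusted p = 0.681, 95% interval 0.93- to 1.18-fold).

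STAG3L3, a shortened and non-coding copy of STAG3, received 105, 109 and 124 estimated counts in auxin libraries, against 32.1, 14.9 and 62.5 in DMSO libraries. All auxin libraries were higher, and the DMSO libraries spread widely among themselves, with DMSO 3 the highest and DMSO 2 the lowest. The level was 1.79 ± 0.156 CPM in auxin libraries and 0.608 ± 0.379 CPM in DMSO libraries (SD, n = 3 each), a log2 fold change of 1.53 (SE 0.34) in the fit, or 2.14 without DMSO 3. STAG3L1 was listed at 0 in every library. STAG3L2 had 4.13, 18.4 and 2.78 estimated counts in auxin libraries and 6.46, 6.28 and 5.80 in DMSO libraries, with auxin 2 above the rest. The sum over the 3 copies, at 1.79, 1.96 and 2.01 CPM in auxin libraries and 0.593, 0.426 and 1.13 CPM in DMSO libraries, was nearly all STAG3L3 (93.2 ± 6.65% in auxin libraries, 81.7 ± 10.6% in DMSO libraries), so the log2 fold change of 1.40 (SE 0.28) is a description of the same values.

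The overlapping lncRNA genes, whose transcripts also hold sequence outside the STAG3L copies, received more counts than the copies. ENSG00000290832 had 14.7 ± 0.386 CPM in auxin libraries and 13.7 ± 1.28 CPM in DMSO libraries, a log2 fold change of 0.09 (SE 0.08, edgeR adjusted p = 0.506). ENSG00000290833 had 8.77 ± 0.181 CPM in auxin libraries and 7.45 ± 0.695 CPM in DMSO libraries, a log2 fold change of 0.23 (SE 0.08, edgeR adjusted p = 0.1497). ENSG00000290951 had 4.93 ± 0.326 CPM in auxin libraries and 3.81 ± 0.546 CPM in DMSO libraries, a log2 fold change of 0.38 (SE 0.12, edgeR adjusted p = 0.112). In the last 2 of these genes the groups did not overlap (26.7% of all tested genes), and none of the 3 passed the threshold.

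Summed over the 3 STAG3L copies and the genes that share at least 35% of the 31-mers of one of them, the level was 29.7, 30.4 and 30.9 CPM in auxin libraries, against 28.2, 24.7 and 24.3 CPM in DMSO libraries. The groups did not overlap, DMSO 1 was the DMSO library nearest to the auxin ones, and the log2 fold change was 0.24 (SE 0.06). STAG3L3 made up 5.90 ± 0.426% of this sum in auxin libraries and 2.40 ± 1.61% in DMSO libraries. Without the 3 STAG3L copies, the overlapping genes had 27.9, 28.4 and 28.9 CPM in auxin libraries, against 27.6, 24.3 and 23.2 CPM in DMSO libraries. Their log2 fold change was 0.18 (SE 0.07, edgeR adjusted p = 0.158, 95% interval 1.02- to 1.26-fold). Without one library each it lay between 0.13 and 0.25, with edgeR adjusted p between 0.0448 (without DMSO 1) and 0.384. With limma it was 0.31 on log2(TPM + 0.1) (adjusted p = 0.0694) and 0.30 on log2(TPM + 1) (adjusted p = 0.0804). A sum by symbol joined the 3 STAG3L copies with STAG3L4 and STAG3L5P, copies that share less of this sequence, and left out the overlapping genes. This sum had a mean of 44.8 CPM in auxin libraries and 40.1 CPM in DMSO libraries. Most of it was STAG3L5P, at 32.2 ± 5.31 CPM in auxin libraries and 27.7 ± 3.41 CPM in DMSO libraries. The log2 fold change of the sum by symbol was 0.16 (SE 0.10).

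**Figure D3:**
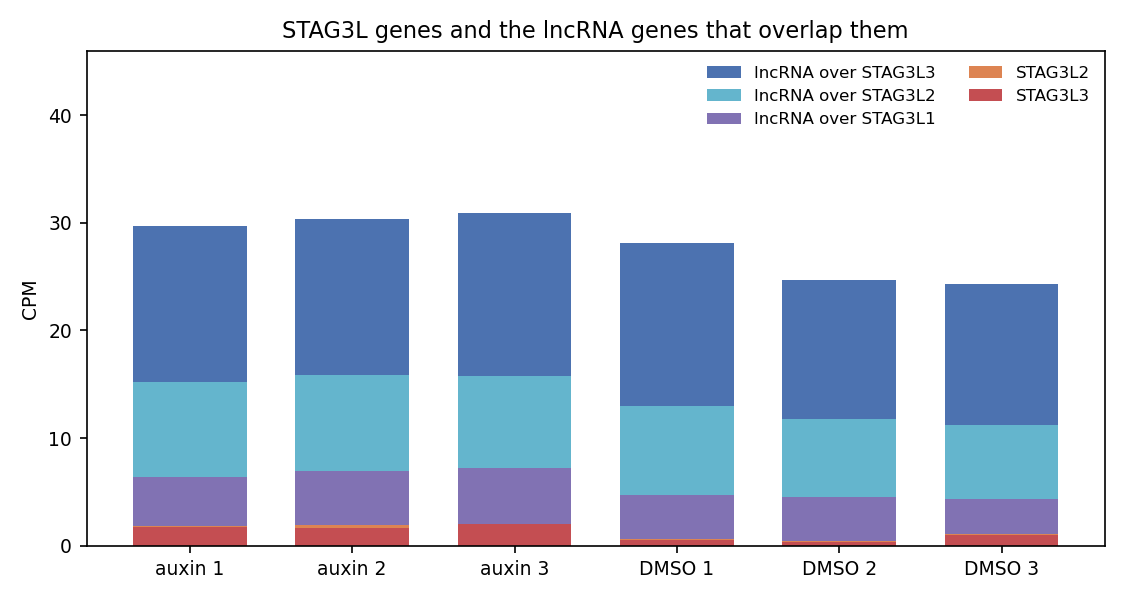
CPM of STAG3L3, STAG3L2 and the 3 lncRNA genes that overlap the STAG3L copies, stacked, in each auxin (left) and DMSO (right) library. STAG3L3 is the lowest band, at 1.68 to 1.97 CPM in auxin and 0.300 to 1.03 CPM in DMSO, under stacks of 29.7 to 30.9 CPM in auxin and 24.3 to 28.2 CPM in DMSO.

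STAG3 (chr7:100177563-100214387, plus strand), the intact parent gene, was barely expressed. It received 58.3, 51.8 and 68.3 estimated counts in auxin libraries, against 67.7, 37.7 and 55.6 in DMSO libraries. The level was 0.947 ± 0.146 CPM in auxin libraries and 0.906 ± 0.143 CPM in DMSO libraries (SD, n = 3 each, log2 fold change 0.04, SE 0.19, edgeR adjusted p = 0.927). The 95% interval was 0.77- to 1.38-fold, so changes within that range are not excluded.

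**Figure D4:**
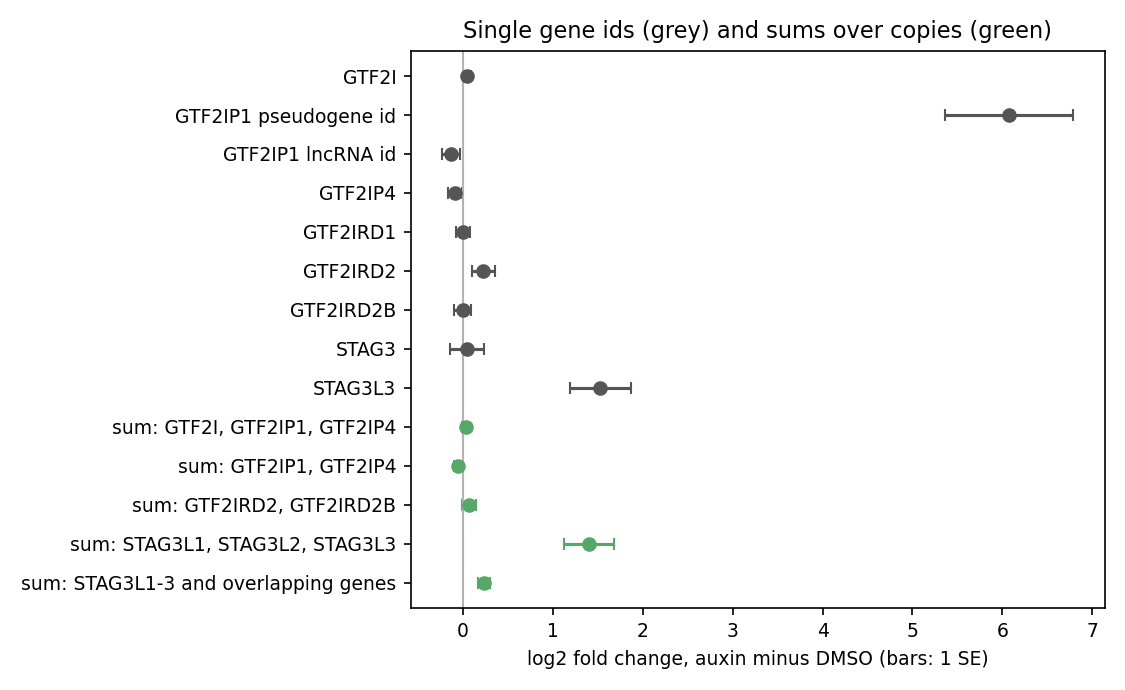
Log2 fold change, auxin minus DMSO, with bars of 1 SE, for each tested member gene id (grey) and for sums over near-identical copies (green). The GTF2IP1 pseudogene id lies at 6.08 and the sum of GTF2IP1 and GTF2IP4 at -0.05, while STAG3L3 lies at 1.53 and the sum with its overlapping genes at 0.24. The GTF2IP1 pseudogene id and STAG3L3 are each a small part of the sum named beside them.

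Levels per effective length are given in their DMSO order. GTF2I came first, and then a group whose neighbours do not differ beyond their spread in DMSO libraries: GTF2IP4 at 14.5 ± 0.589 TPM in auxin libraries and 14.9 ± 0.983 TPM in DMSO libraries, GTF2IRD1 at 13.3 ± 2.11 TPM in auxin libraries and 12.6 ± 1.95 TPM in DMSO libraries, and the GTF2IP1 lncRNA id at 10.3 ± 0.316 TPM in auxin libraries and 10.5 ± 1.55 TPM in DMSO libraries. GTF2IRD2B (6.65 ± 1.41 TPM in auxin, 6.61 ± 0.460 TPM in DMSO) and GTF2IRD2 (3.50 ± 0.652 TPM in auxin, 2.85 ± 0.674 TPM in DMSO) followed. STAG3L3 (2.54 ± 0.227 TPM in auxin, 0.831 ± 0.519 TPM in DMSO) and STAG3 (0.570 ± 0.129 TPM in auxin, 0.6003 ± 0.0848 TPM in DMSO) did not differ from each other beyond their spread in DMSO libraries. STAG3L2 (0.197 ± 0.194 TPM in auxin, 0.154 ± 0.0214 TPM in DMSO) came below these. The GTF2IP1 pseudogene id stood at 1.41 ± 0.597 TPM in auxin libraries and 0.0219 ± 0.0359 TPM in DMSO libraries.

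At the level of transcripts, 37 of the 80 members passed the filter and edgeR called 0 of them, where 0.00256% of 78049 tested transcripts were called. An unadjusted p under 0.05 was found for 3 of the 37, where 6.57% of all tested transcripts had one, but 2 of the 3 were GTF2IP1-201 and STAG3L3-201, on which the set was selected, and the remaining one was GTF2IRD2-201. DESeq2, which called 1149 of the 78049 tested transcripts, gave an adjusted p to 12 of the 37 members and called 0 of these. It could not call the other members, which had no adjusted p. Groups did not overlap in 6 of the 37 (GTF2IP1-201, GTF2IP1-204, GTF2IRD2-201, GTF2IRD2-203, GTF2IRD2B-207 and STAG3L3-201), where 14.2% of all tested transcripts did not overlap, with GTF2IP1-201 and STAG3L3-201 again selected on these values. GTF2IRD2B-207 was the one of these that was lower in auxin libraries, at 0, 13.8 and 0.0246 estimated counts, against 30.0, 14.4 and 22.4 in DMSO libraries.

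Swings between near 0 and a clear signal occurred within groups too. Of the 49 member transcripts with at least 10 estimated counts in a library, 15 (30.6%) had under 1 in another library of the same group, as did 19.7% of the 94271 such transcripts in the tables. GTF2IRD2B-203, for example, had 3.59, 53.5 and 23.5 estimated counts in auxin libraries and 0, 16.1 and 54.6 in DMSO libraries. Swings that follow the groups were rarer: 114 transcripts (0.0572% of 199240) had under 1 estimated count in every DMSO library and at least 10 in every auxin library, and 58 (0.0291%) had under 1 in every auxin library and at least 10 in every DMSO library. GTF2IP1-201, with 4.95 in DMSO 2, was in neither set. It was among the 16 transcripts (0.00803%) with under 6 in every DMSO library and at least 50 in every auxin library, limits that were set after its values were seen.

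The genes whose levels ran most like those of the members over the 6 libraries are given as a description. The closest to GTF2I were ARL2BP, APOD and XRCC1 (Pearson r of log2 CPM 0.992, 0.992 and 0.991). The closest to the GTF2IP1 pseudogene id were MKNK2, KLHL28 and PPP1R12B (r = 0.999, 0.994 and 0.993), and the closest to STAG3L3 were SIPA1L1, SPATA9 and MKRN1 (r = 0.998, 0.993 and 0.992). With 6 libraries that share depth and group, r of 0.95 or more was reached by 40, 148 and 94 tested genes for these 3 members, in that order.

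Most other genes around the members, some of which have copies of their own, did not pass the test. Of 34 neighbouring genes, 33 were tested, 3 were called higher in auxin libraries and 1 lower (4.32% and 2.46% of all genes), with a median log2 fold change of 0.02. DESeq2 called 6 of them (10.4% of all genes), and 11 had an unadjusted p under 0.05 in edgeR (21.1% of all genes). CLIP2, which encodes a microtubule-binding protein, had 43.8, 35.4 and 35.8 CPM in auxin libraries, against 28.2, 28.0 and 28.7 CPM in DMSO libraries (log2 fold change 0.44, SE 0.08, edgeR adjusted p = 0.0224). On the same scale CLDN4, which encodes a tight junction claudin, was at 0.23 (SE 0.06), HIP1, which encodes a clathrin adaptor, at 0.18 (SE 0.05) and the small heat shock gene HSPB1 at -0.20 (SE 0.05), with edgeR adjusted p between 0.0492 and 0.0730. BAZ1B, a chromatin remodeller subunit gene of the same region, did not pass, at 0.02 (SE 0.06).

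Other duplicated genes of the region gave 2 calls among 24 tested ids, where 6.78% of all genes were called, both lower in auxin libraries (2.46% of all genes) and both ids of SBDSP1, a pseudogene of SBDS (log2 fold change -0.24, SE 0.06, and -0.32, SE 0.09). The pair shares a symbol, so the ids may share reads. SBDS itself did not pass, at -0.147 (SE 0.05, edgeR adjusted p = 0.111). The median over the 24 was -0.003. DESeq2 called 3 ids of this list (10.4% of all genes), and 4 had an unadjusted p under 0.05 in edgeR (21.1% of all genes). Of 16 genes of cohesin and the synaptonemal complex, to which STAG3 belongs, 13 were tested and edgeR called 0 (6.78% of all genes). An unadjusted p under 0.05 was found for 0 of them (21.1% of all genes), and DESeq2 called 0 (10.4% of all genes). STAG2 and STAG1, the mitotic counterparts of STAG3, had log2 fold changes of 0.02 (SE 0.06) and 0.07 (SE 0.05). Of 17 partners and reported targets of TFII-I, 16 were tested and edgeR called 0, with 3 at an unadjusted p under 0.05 (21.1% of all genes) and 2 called by DESeq2 (10.4% of all genes), and the median log2 fold change was -0.07.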

How the data were processed

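Poly(A)-selected, strand-marking libraries were sequenced in paired ends of 43 bases, and the authors assigned reads to human transcripts (hg38) with kallisto. The deposited estimated counts were not normalised, replicates were not pooled, and no source used here gives the transcript release or strand setting. Depth lay between 52.5 and 68.4 M estimated counts; no interval for counting error is given, since the counts are estimates. The deposited transcript length and effective length served to compute TPM.

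Identifiers were matched to GENCODE 44 (178869 of 199240 transcripts, with 96.2% to 96.3% of the counts). Estimated counts were summed per gene id, or over copies, rounded to whole numbers and compared by edgeR 4.0.16 quasi-likelihood fits (R 4.3.3; TMM, robust, default filter with a minimum count of 10 and total of 15), auxin against DMSO, at an adjusted p under 0.1 over all genes or all transcripts. SE is the log2 fold change divided by the root of the test's F, and 95% intervals use the reference distribution of that test. Alternatives used DESeq2 1.42.0 and limma 3.58.1. The code was tested on simulated data. Groups came from the labels. Unmatched transcripts stayed out of gene sums, and the authors' resampled estimates were not used. Shared 31-mers were counted over the GENCODE sequences of the matched transcripts only, so other transcripts could hold some of those called particular to a gene. Named items were all member gene ids, their transcripts with at least 10 estimated counts in a library, copies on which the sums turn, and the 3 genes with the highest r. Members and lists were chosen with earlier results of these data known.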

Additional observations from a re-analysis of the deposited data

How the results depend on the processing

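Neither a call nor an end to a call was found among the 7 member gene ids given with a test, under any setting tried. Without one library each, 183 to 1566 genes were called (main 1069), with 316 without DMSO 2, 251 without DMSO 3, 183 without auxin 2 and 336 without auxin 3, and 0 to 1 transcripts (main 2). DESeq2 called 1638 genes and 1149 transcripts, effective length offsets 366 genes, limma on log2(TPM + 1) 452 and on log2(TPM + 0.1) 482. Without a count filter 6 transcripts were called, and 28 with at least 50 counts in 3 libraries. The share of calls higher in auxin was 63.7% in the main design, 48.5% with DESeq2, 76.5% with effective length offsets, 92.9% with either TPM fit, 32.0% after removing the length trend and 52.6% under the replicate block. The replicate block gave 4866 genes and 0 transcripts. The correlations of same-numbered libraries were 0.153, 0.049 and 0.052, and each library correlated best with its own number. The margin was small for some, since auxin 2 had 0.0490 with DMSO 2 and 0.0487 with DMSO 3. Because the labels do not say what the number marks, it is not known whether same-numbered libraries share more than that. The main design did not use the number.

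The GTF2I family sum moved to -0.035 with the length trend removed, to between -0.0085 and 0.040 without one library each, and to -0.052 without GTF2I. The STAG3L sum (1.40) ran from 1.15 to 1.88 without one library each (1.39 without auxin 2, 1.37 without auxin 3). Sums made up mostly or wholly of other genes gave 0.16 (all STAG3L symbols, mostly STAG3L5P) and 0.18 (the overlapping genes alone). The overlapping genes alone (0.18) passed the threshold on either TPM scale (0.31 and 0.30), under the replicate block (0.19, adjusted p = 0.0233) and without DMSO 1 (0.25). They did not pass in the main design, and without one library each the edgeR adjusted p reached 0.384 and the log2 fold change fell as low as 0.13. Near-zero values changed sign: GTF2I became -0.019 with the length trend removed. GTF2IRD1 became -0.0076 with DESeq2 and with median-of-ratios factors, -0.056 with the length trend removed, -0.00083 with the replicate block, -0.0031 with the stricter filter, and lay between -0.075 and 0.054 without one library each. GTF2IRD2B lay between -0.059 and 0.078 and STAG3 between -0.070 and 0.15 without one library each, and STAG3 was -0.16 with effective length offsets, -0.074 on log2(TPM + 0.1) and -0.029 on log2(TPM + 1). The GTF2IP1 pseudogene id stayed positive throughout, at 1.21 on log2(TPM + 1), 3.60 on log2(TPM + 0.1) and 5.43 to 10.02 without one library each, as did STAG3L3, at 0.99 on log2(TPM + 1) and 1.22 to 2.14 without one library each. Limits of under 5 and at least 20 counts gave 57 transcripts low in DMSO only, against 114 at under 1 and at least 10. The cause of these differences was not tested.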
